A study of Arabidopsis thaliana with 6 samples.

Results

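Glucosinolates are sulfur-rich defence compounds of the cabbage order, and this account follows 42 Arabidopsis thaliana genes that build, move or break them down, in roots of the myb68 myb84 mutant and of the wild type. The 42 were taken by gene identifier from the 32833 identifiers in the files. They were 20 of the aliphatic branch, 11 of the indole branch, 5 assigned here to both branches, 2 transporters and 4 breakdown enzymes. Of these, 39 had enough counts to be tested and 3 did not.

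RNA was sequenced from the uppermost 2 cm of the primary root of plants grown for 18 days on plates of 1/2 MS medium at 22 °C under constant light, with no treatment. The myb68 myb84 group, a line labelled as mutant in MYB68 and MYB84, had 3 libraries, and the WT group, accession Col, had 3. Each library came from a pool of at least 40 plants, so the spread between libraries is a spread between pools. The sample labels give this genotype, while the study's design text also names MYB86 where the labels have MYB84. The alleles and the number of independent mutant lines were not given in the sources used here. The study asked how the MYB68 subclade of MYB transcription factors controls cork formation and suberin in the root.

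Aliphatic glucosinolates start from methionine, whose side chain is lengthened in the plastid before the core structure is made, and indole glucosinolates start from tryptophan. In both, a CYP79 cytochrome P450 turns the amino acid into an aldoxime, a CYP83 oxidises the aldoxime, and conjugation to glutathione, C-S cleavage, glucosylation and sulfation complete the core. Side chains are then oxidised or hydroxylated, the finished compounds are carried between cells by GTR proton symporters, and β-glucosidases called myrosinases release toxic products when tissue is damaged. In Arabidopsis, MYB28, MYB29 and MYB76 activate the aliphatic branch and MYB34, MYB51 and MYB122 the indole branch.

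The called genes of the indole branch were all lower in the mutant, and the few of the aliphatic branch lay on both sides. Transcripts of 5 of the 10 tested indole genes were lower in myb68 myb84 and none was higher, including all 4 enzymes assigned to the indole core (CYP79B2, CYP79B3, CYP83B1 and SOT16). In the aliphatic branch 2 of 18 tested genes were higher (BAT5 and CYP83A1) and 1 was lower (FMO GS-OX2). The CYP83A1 call lay close to the threshold (edgeR adjusted p = 0.0449). None of the 5 shared enzymes, the 2 transporters or the 4 breakdown enzymes passed the test in edgeR, where by unadjusted p (threshold 0.05) 1 shared enzyme was lower, 1 transporter higher and 1 breakdown enzyme lower. A change means an adjusted p under 0.05 in edgeR's quasi-likelihood test with Benjamini-Hochberg adjustment over all 20941 tested genes. By that rule 8.30% of all tested genes changed, 4.66% upward and 3.65% downward. With DESeq2 as the test, 4 of the 42 genes were higher and 9 lower, and the calls over all genes were 5.57% upward and 4.58% downward.

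Upstream sequences of 4 of the 8 called genes are shown: those of CYP79B2 and CYP79B3, which catalyse the same step and share a run of bases, and those of BAT5 and CYP83A1, the called genes of the aliphatic branch that were higher and that hold a searched motif. Each is the 300 bases before the annotated start in the TAIR10.1 build, written 5′ to 3′ on the gene's own strand. The pair CYP79B2, at chr4:18524742-18525041 on the plus strand, and CYP79B3, at chr2:9488113-9488412 on the plus strand, shared a run of 22 identical bases, shown in capitals. This run was noticed after the sequences had been seen.
CYP79B2: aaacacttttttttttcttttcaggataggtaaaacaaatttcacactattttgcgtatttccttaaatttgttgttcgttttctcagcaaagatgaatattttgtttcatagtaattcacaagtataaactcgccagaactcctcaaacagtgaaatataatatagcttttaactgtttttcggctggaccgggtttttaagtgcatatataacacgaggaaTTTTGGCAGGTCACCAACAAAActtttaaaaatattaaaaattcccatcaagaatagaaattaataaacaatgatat
CYP79B3: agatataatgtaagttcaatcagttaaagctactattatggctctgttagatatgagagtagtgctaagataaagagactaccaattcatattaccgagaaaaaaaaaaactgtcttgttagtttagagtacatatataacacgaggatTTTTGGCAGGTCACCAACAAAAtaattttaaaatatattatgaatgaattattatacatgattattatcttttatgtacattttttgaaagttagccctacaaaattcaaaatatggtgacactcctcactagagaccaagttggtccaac
The run lay 77 to 56 bases before the start of CYP79B2 and 151 to 130 bases before that of CYP79B3. It occurred in these 2 of the 27443 promoters of the annotation, which is 0.00729%. The run was picked as the longest that these 2 windows share, so both had to hold it. The percentage is therefore no measure of how unusual the run is, and its bearing on transcript levels was not tested. Both genes encode enzymes that make indole-3-acetaldoxime from tryptophan, and transcripts of both were lower in the mutant.

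BAT5, whose promoter is at chr4:7210507-7210806 on the plus strand, and CYP83A1, whose promoter is at chr4:7992430-7992729 on the minus strand, are the called aliphatic genes with more transcript in the mutant. Capitals mark ACCAACC, a MYB-type element read on either strand, in BAT5 and CACGTG, the G-box that basic helix-loop-helix factors such as MYC2 can bind, in CYP83A1.
BAT5: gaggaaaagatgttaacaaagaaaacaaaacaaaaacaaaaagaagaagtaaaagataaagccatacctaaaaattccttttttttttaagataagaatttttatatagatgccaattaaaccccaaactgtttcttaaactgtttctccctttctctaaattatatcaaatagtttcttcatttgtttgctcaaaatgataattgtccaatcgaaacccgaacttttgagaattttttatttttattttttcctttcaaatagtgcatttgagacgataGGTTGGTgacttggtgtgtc
CYP83A1: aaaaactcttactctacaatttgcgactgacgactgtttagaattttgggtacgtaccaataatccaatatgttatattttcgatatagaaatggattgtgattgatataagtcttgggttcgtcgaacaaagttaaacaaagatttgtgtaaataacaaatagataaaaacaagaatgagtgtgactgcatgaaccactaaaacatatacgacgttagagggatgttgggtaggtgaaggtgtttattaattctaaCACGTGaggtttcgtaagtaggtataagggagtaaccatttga
The BAT5 match, on the strand opposite to the gene, began 20 bases before the start, and the CYP83A1 match began 43 bases before it. Over the 42 promoters, CACGTG was found in 3 (7.14%), against 7.09% of all 27443 promoters. ACCAACC was found in 6 (14.3%), against 3.18% of all promoters, 4 of them aliphatic and 1, that of SOT16, indole. ACCTAAC was found in 2 (4.76%), against 2.93%, and ACCAAAC in 2 (4.76%), against 9.66%. Both strands were searched. A promoter can hold more than 1 motif, and ACCAACC and ACCAAAC begin with the same letters. Any of the 3 MYB-type motifs was found in 8 promoters (19.0%), against 14.9% of all. A match describes these letters and does not show binding.

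The genes named in the genotype were measurable in both groups. Levels are given as CPM, counts per 1000000 library counts after TMM scaling, in libraries 1, 2 and 3 of each genotype. MYB84 had 5.94, 4.90 and 7.17 CPM in myb68 myb84, against 8.96, 7.84 and 13.0 CPM in WT, a log2 fold change of -0.70 (edgeR adjusted p = 0.0442). That call held in 2 of the 6 fits without a library, with an adjusted p of up to 0.149, and not with limma-voom. MYB68 had 60.8, 67.7 and 74.8 CPM in myb68 myb84, against 49.3, 49.5 and 62.3 CPM in WT, a log2 fold change of 0.34 (edgeR adjusted p = 0.0613, DESeq2 adjusted p = 0.0311). The sources used here do not give the place of each lesion, and these transcript levels therefore do not check the genotype. Total counts per library were 40401311, 32216039 and 55907128 in myb68 myb84, against 51770078, 26856622 and 19446419 in WT.

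Markers of tissues that the segment could hold were read beside the glucosinolate genes. By the same edgeR rule 4.66% of all tested genes were higher and 3.65% lower. Green-tissue transcripts were present in all libraries and 5 of the 7 listed were higher in myb68 myb84, with summed levels of 1940, 2150 and 1919 CPM in myb68 myb84, against 1321, 1396 and 880 CPM in WT. WT 3 was the lowest of the 6. Of 4 phellem and suberin genes 3 were lower, with sums of 298, 289 and 347 CPM in myb68 myb84, against 433, 419 and 447 CPM in WT. Of 4 endodermis markers, MYB36 and SCR were higher and the CASP genes did not pass. Of 3 root epidermis markers EXPA7 was higher. GL2, at a log2 fold change of 0.31 (edgeR adjusted p = 0.158), and WER, at -0.44 (edgeR adjusted p = 0.251), did not pass. By unadjusted p (threshold 0.05) GL2 was higher too. In edgeR 0 of the xylem, phloem and cambium markers passed, although by that unadjusted threshold 1 xylem marker was lower. No phellem or green-tissue marker was at 0 in any library. The phellem sums separated the genotypes in the direction in which the indole genes did, and the green-tissue sums in the opposite one. The part of these tissues in the glucosinolate results was not tested. Among the glucosinolate genes themselves, mutant library 1 stood apart from the other libraries in the aliphatic branch and WT 3 and WT 1 in the myrosinases TGG1 and TGG2.

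Both tryptophan-specific entry enzymes were lower in the mutant, CYP79B3 with little scatter and CYP79B2 with more. CYP79B3 (AT2G22330, chromosome 2) had 237, 219 and 228 CPM in myb68 myb84 libraries 1, 2 and 3, against 390, 421 and 411 CPM in WT libraries 1, 2 and 3. The mutant libraries all lay well below the WT libraries, and the log2 fold change was -0.84 ± 0.07 (SE, n = 3 each, edgeR adjusted p = 2.07e-05), or 56.0% of the WT level. CYP79B2 (AT4G39950, chromosome 4), its partner in the same step, had 198, 138 and 204 CPM in myb68 myb84, against 283, 314 and 407 CPM in WT. The groups did not overlap, although both were more scattered than for CYP79B3. Its log2 fold change was -0.89 ± 0.19 (SE, edgeR adjusted p = 0.0283), and the call was lost without WT 2 or without myb68 myb84 1, where the adjusted p reached 0.0843, and without a filter on low counts, where it was 0.0773.

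**Figure D1:**
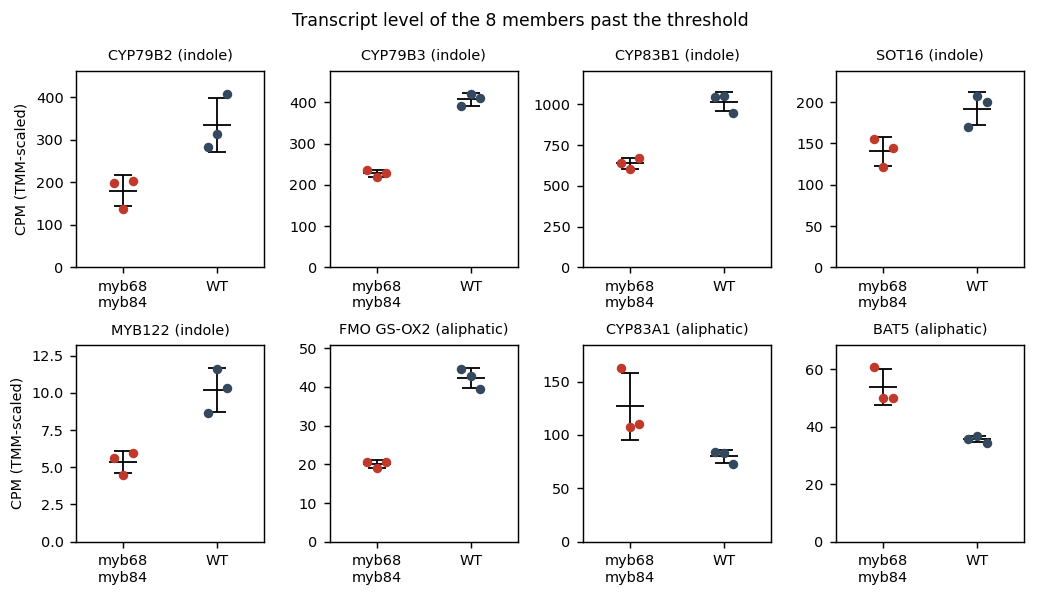
Transcript level in CPM (TMM-scaled) of each of the 8 glucosinolate genes past the threshold, with a point per library, myb68 myb84 on the left and WT on the right of each panel, and a bar at the mean with its SD (n = 3 each). The groups do not overlap in any panel, and BAT5 and CYP83A1 are higher in myb68 myb84 while the other 6 are lower.

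CYP83B1 (AT4G31500, chromosome 4), which oxidises indole-3-acetaldoxime and so draws it into glucosinolate rather than auxin synthesis, was the most abundant indole transcript. It had 641, 605 and 671 CPM in myb68 myb84, against 1047, 1051 and 948 CPM in WT. Every mutant library was below every WT library, with a log2 fold change of -0.67 ± 0.08 (SE, edgeR adjusted p = 0.000385). SOT16 (AT1G74100, chromosome 1), the sulfotransferase that completes indole glucosinolates, had 156, 121 and 144 CPM in myb68 myb84, against 170, 207 and 200 CPM in WT. Its lowest WT library lay just above the highest mutant library. The log2 fold change was -0.45 ± 0.10 (SE, edgeR adjusted p = 0.0166), and it no longer passed without WT 2 or without myb68 myb84 2, with an adjusted p of up to 0.0704.

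Summed over the 4 indole core genes, transcript averaged 1188 ± 90.8 CPM in myb68 myb84 and 1949 ± 53.1 CPM in WT (SD, n = 3 each), which is 60.9% of the WT level. Their median log2 fold change was -0.75, against -0.00257 over all tested genes. CYP79B3 and CYP83B1 passed in each of the 6 fits that left out a library. In whole root segments, fewer cells that make a transcript and less transcript per cell cannot be told apart.

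Of the 3 indole regulators only MYB122, the least abundant, passed. MYB122 (AT1G74080, chromosome 1) had 5.60, 4.49 and 5.95 CPM in myb68 myb84, against 8.67, 11.6 and 10.3 CPM in WT. The groups were clearly apart, with a log2 fold change of -0.91 ± 0.16 (SE, edgeR adjusted p = 0.00285), and the call held in all 6 fits without a library. MYB34 (AT5G60890), a main activator of the indole branch in roots, had 101, 78.8 and 112 CPM in myb68 myb84, against 85.0, 109 and 132 CPM in WT. These ranges overlapped, and the log2 fold change of -0.15 ± 0.18 (SE) had an edgeR adjusted p of 0.707. MYB51 (AT1G18570), an activator better known from shoots and from defence responses, had 40.6, 39.9 and 35.0 CPM in myb68 myb84, against 37.4, 33.0 and 38.2 CPM in WT. Its groups overlapped too, at a log2 fold change of 0.09 ± 0.09 (SE, edgeR adjusted p = 0.609). Per kb of exon, MYB122 was at 3.42 CPM in myb68 myb84 and 6.52 CPM in WT, while MYB34 was at 54.7 and MYB51 at 21.6 CPM per kb in myb68 myb84, against 61.0 and 20.3 CPM per kb in WT.

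The indole ring is decorated by CYP81F hydroxylases, and none of the 3 that could be tested passed. CYP81F3 (AT4G37400) came nearest, with 12.0, 10.4 and 10.9 CPM in myb68 myb84, against 15.7, 11.9 and 18.4 CPM in WT. Mutant library 1 lay just above WT 2, and the log2 fold change was -0.46 ± 0.14 (SE, edgeR adjusted p = 0.0690, DESeq2 adjusted p = 0.0430). CYP81F2 (AT5G57220), which makes the 4-hydroxylated indole glucosinolate that PEN2 uses in defence, had 13.9, 17.5 and 14.4 CPM in myb68 myb84, against 38.1, 12.8 and 14.7 CPM in WT. WT 1 alone was high, and without it the log2 fold change was 0.15 in place of -0.56. CYP81F4 (AT4G37410), needed for the 1-methoxy form, had 59.5, 54.1 and 77.5 CPM in myb68 myb84, against 52.1, 70.0 and 85.0 CPM in WT, with 88.2% of its exon bases overlapped by the annotated gene AT4G37409. The ranges overlapped almost fully, at a log2 fold change of -0.11 (edgeR adjusted p = 0.834). CYP81F1 (AT4G37430) was listed at 0 in all 6 libraries, but 98.4% of its exon bases are overlapped by AT4G37432, so this 0 does not show that the gene was silent.

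Most aliphatic genes had small positive fold changes that did not pass the test. Of its 18 tested genes, 14 had a log2 fold change above 0 and 4 below, with a median of 0.39. Over all tested genes 49.5% were above 0. In 8 of the 18 every myb68 myb84 library was above every WT library, and in 1 below. Of all tested genes 27.2% had no overlap between genotypes, 14.1% upward and 13.2% downward. In the indole branch 1 of 10 tested genes was above 0, the median was -0.51, and 5 of 10 had every mutant library below every WT library and 0 had the reverse.

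**Figure D2:**
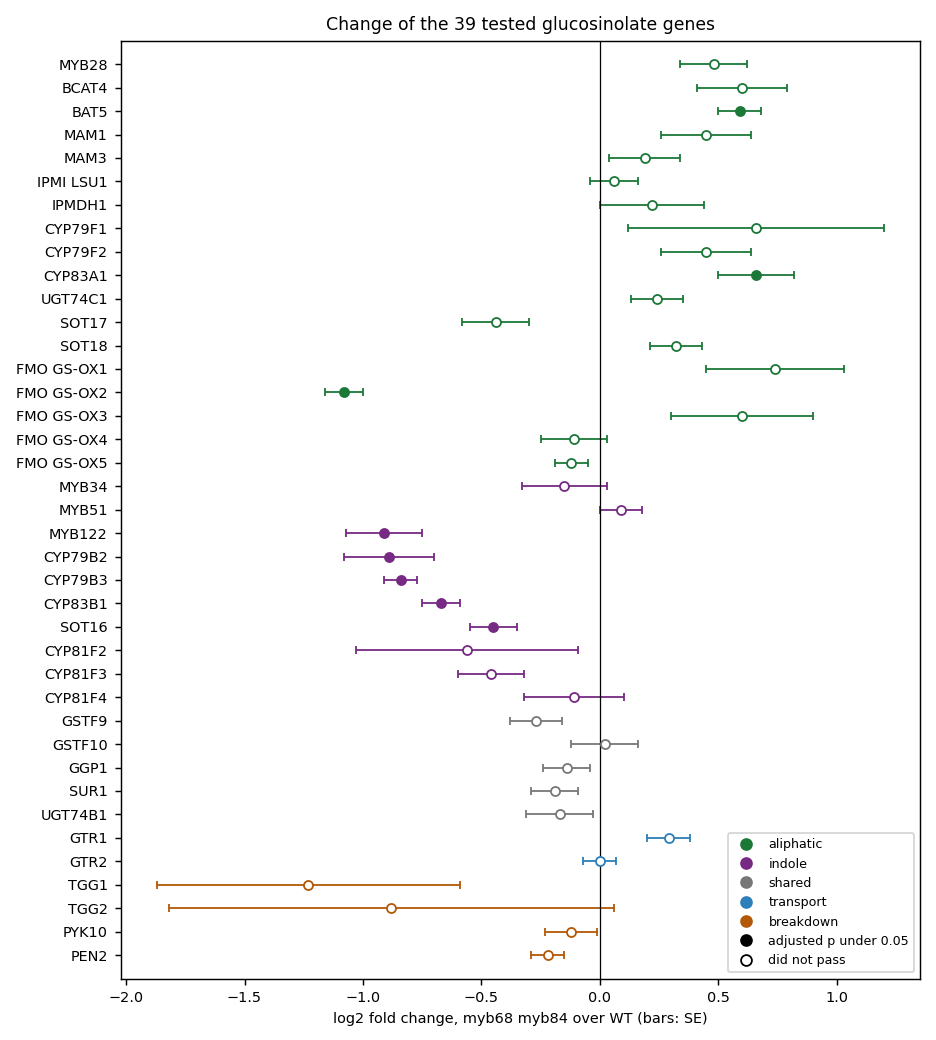
Log2 fold change of myb68 myb84 over WT for the 39 tested glucosinolate genes, grouped by branch, with the SE as a horizontal bar and filled points for the genes past the threshold. The indole genes lie at or left of 0 except MYB51 at 0.09, while 14 of 18 aliphatic genes lie to the right.

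MYB28 (AT5G61420, chromosome 5), the main activator of aliphatic synthesis, was the only aliphatic regulator with enough counts. It had 47.0, 30.5 and 35.2 CPM in myb68 myb84, against 28.3, 25.4 and 26.8 CPM in WT. The mutant libraries all lay above the WT libraries, yet the log2 fold change of 0.48 ± 0.14 (SE) had an edgeR adjusted p of 0.0611 and did not pass. DESeq2 gave MYB28 an adjusted p of 0.00907. MYB29 had 8, 0 and 0 counts in myb68 myb84, against 20, 2 and 2 counts in WT, and MYB76 had 0, 2 and 0 counts in myb68 myb84, against 8, 0 and 0 counts in WT. Both were too low to test.

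Methionine chain elongation was represented by 6 genes, all with a log2 fold change above 0 and with a median of 0.34, of which 1 passed. BAT5 (AT4G12030, chromosome 4), the carrier that brings the 2-oxo acids into the plastid, had 60.9, 50.0 and 50.1 CPM in myb68 myb84, against 35.8, 36.7 and 34.5 CPM in WT. The groups were far apart relative to their spread, with a log2 fold change of 0.59 ± 0.09 (SE, edgeR adjusted p = 0.00113), and the gene passed in all 6 fits without a library. BCAT4 (AT3G19710), the aminotransferase that starts the cycle, had 234, 151 and 156 CPM in myb68 myb84, against 122, 132 and 101 CPM in WT. It did not overlap between groups either, but its log2 fold change of 0.60 ± 0.19 (SE) had an edgeR adjusted p of 0.112, against 0.0326 with limma-voom, and 21.2% of its exon bases are overlapped by AT3G19700.

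The condensing enzymes and the later steps of the cycle did not pass. MAM1 (AT5G23010), the methylthioalkylmalate synthase of the short chains, had 218, 150 and 135 CPM in myb68 myb84, against 133, 129 and 105 CPM in WT, a log2 fold change of 0.45 ± 0.19 (SE, edgeR adjusted p = 0.219). MAM3 (AT5G23020), the synthase that also makes long chains, had 445, 297 and 294 CPM in myb68 myb84, against 317, 301 and 291 CPM in WT. In MAM3, mutant library 1 stood alone and the other mutant libraries were level with WT. The same was seen for the isomerase subunit IPMI LSU1, with 380, 282 and 304 CPM in myb68 myb84, against 314, 321 and 294 CPM in WT, and for the dehydrogenase IPMDH1, with 248, 148 and 155 CPM in myb68 myb84, against 159, 175 and 139 CPM in WT. Without myb68 myb84 1 the log2 fold changes of MAM3, IPMI LSU1 and IPMDH1 were -0.03, -0.08 and -0.06, so the count of 6 genes above 0 rests on that library.

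In the aliphatic core, CYP83A1 (AT4G13770, chromosome 4), the aldoxime-oxidising partner of the CYP79F enzymes, had 163, 107 and 110 CPM in myb68 myb84, against 83.7, 83.2 and 72.7 CPM in WT. Every mutant library was above every WT library, with mutant library 1 far above the rest. The log2 fold change was 0.66 ± 0.16 (SE, edgeR adjusted p = 0.0449). This call sat close to the threshold: it was lost without WT 1, WT 2 or WT 3, with an adjusted p of up to 0.131, and it gave 0.0522 with upper-quartile scaling and 0.0941 without a filter on low counts.

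The CYP79F pair, which makes aldoximes from elongated methionine, did not pass. CYP79F2 (AT1G16400), which acts on the long chains, had 115, 68.2 and 80.2 CPM in myb68 myb84, against 64.5, 69.0 and 58.5 CPM in WT, with a log2 fold change of 0.45 ± 0.19 (SE, edgeR adjusted p = 0.218, DESeq2 adjusted p = 0.0236). CYP79F1 (AT1G16410), which accepts short and long chains, had 1.28, 1.03 and 1.14 CPM in myb68 myb84, against 1.16, 0.761 and 0.0508 CPM in WT, and its groups overlapped. Per kb of exon, CYP79F2 stood at 43.5 CPM in myb68 myb84 and 31.7 CPM in WT, and CYP79F1 at 0.351 CPM in myb68 myb84 and 0.201 CPM in WT. These neighbours share few of their 50-base stretches (2.89% of those of CYP79F2 and 1.7% of those of CYP79F1 occur elsewhere). The level of CYP79F2 was thus far above that of CYP79F1 in both genotypes.

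The last steps of the aliphatic core lay on both sides of 0, and none passed. UGT74C1, a glucosyltransferase, had 43.0, 31.4 and 32.6 CPM in myb68 myb84, against 30.9, 31.1 and 28.8 CPM in WT, a log2 fold change of 0.24 ± 0.11 (SE, edgeR adjusted p = 0.236). SOT18, a sulfotransferase for aliphatic desulfoglucosinolates, had 107, 84.4 and 84.7 CPM in myb68 myb84, against 72.1, 84.1 and 64.8 CPM in WT, a log2 fold change of 0.32 ± 0.11 (SE, edgeR adjusted p = 0.120). In both, the lowest mutant library was barely above the highest WT library. SOT17, another sulfotransferase of the aliphatic branch, lay on the other side of 0, with 46.6, 32.2 and 37.8 CPM in myb68 myb84, against 45.2, 55.2 and 58.4 CPM in WT. Its groups overlapped through mutant library 1 and WT 1, and the log2 fold change of -0.44 ± 0.14 (SE) had an edgeR adjusted p of 0.0930, against 0.0139 with DESeq2.

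The FMO GS-OX flavin monooxygenases oxidise the sulfur of the aliphatic side chain, and FMO GS-OX2 showed the most significant change of the 39 tested genes. FMO GS-OX2 (AT1G62540, chromosome 1) had 20.7, 19.0 and 20.6 CPM in myb68 myb84, against 44.7, 42.8 and 39.6 CPM in WT. The libraries of each genotype were tightly grouped and the mutant level was 47.5% of WT, a log2 fold change of -1.08 ± 0.08 (SE, edgeR adjusted p = 7.14e-06), called in all 6 fits without a library. This gene thus went against the sign of most of the aliphatic branch.

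The other FMO GS-OX genes did not pass. FMO GS-OX3 had 13.2, 7.67 and 7.86 CPM in myb68 myb84, against 4.29, 6.35 and 8.84 CPM in WT, and FMO GS-OX1 had 3.63, 2.06 and 2.07 CPM in myb68 myb84, against 1.41, 1.83 and 1.42 CPM in WT. Their log2 fold changes were 0.60 ± 0.30 and 0.74 ± 0.29 (SE). FMO GS-OX1 did not overlap between groups, at an edgeR adjusted p of 0.142. FMO GS-OX4, the most abundant of the 5, had 202, 234 and 270 CPM in myb68 myb84, against 206, 262 and 295 CPM in WT. FMO GS-OX5 had 61.1, 58.2 and 62.6 CPM in myb68 myb84, against 61.5, 70.9 and 65.6 CPM in WT, with 28.2% of its exon bases overlapped by other genes. Both overlapped between groups, with log2 fold changes of -0.11 and -0.12.

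The branches were also set against each other within each library. The summed CPM of the 11 indole genes was 1465, 1289 and 1503 in myb68 myb84, against 2127, 2240 and 2263 in WT. The indole sums did not overlap, and the mutant mean of 1419 ± 114 CPM was 64.2% of the WT mean of 2210 ± 73.1 CPM (SD, n = 3 each). The summed CPM of the 20 aliphatic genes was 2410, 1754 and 1840 in myb68 myb84, against 1725, 1827 and 1685 in WT. Here the groups overlapped, since mutant library 2 lay below WT 2. The indole sum over the aliphatic sum was 0.608, 0.735 and 0.817 in myb68 myb84, against 1.23, 1.23 and 1.34 in WT. The ratio averaged 0.720 ± 0.105 in myb68 myb84 and 1.27 ± 0.0659 in WT (SD, n = 3 each). For these lists the aliphatic sum was the larger in every mutant library and the smaller in every WT library. The side of 1 on which the ratio lies depends on the genes listed. The aliphatic sum holds chain elongation, while the indole sum leaves out tryptophan synthesis and indole methyltransferases. Those indole genes averaged 1458 CPM in sum in myb68 myb84 and 1661 CPM in WT. Further aliphatic genes outside the sum averaged 1080 CPM in myb68 myb84 and 883 CPM in WT. The 5 shared genes are in neither sum. The sums weight each gene by its abundance and its length, and no p is given for them because the genes were chosen with results of these data known.

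The aliphatic difference depended more on a single library than the indole difference. Mutant library 1 had a median log2 deviation of 0.47 from the mean of the 6 libraries over the aliphatic genes, against -0.05 and 0.04 in mutant libraries 2 and 3 and -0.12, -0.08 and -0.24 in WT. Over the indole genes the medians were -0.21, -0.38 and -0.24 in myb68 myb84, against 0.22, 0.22 and 0.38 in WT. The indole medians separated the genotypes in all libraries. Leaving out mutant library 1 lowered the aliphatic median log2 fold change to 0.21 in place of 0.39, and over the 6 fits without a library the aliphatic median ran between 0.21 and 0.46 and the indole median between -0.62 and -0.48. Without mutant library 1 the log2 fold changes of single aliphatic genes were 0.44 for CYP83A1, 0.30 for MYB28, 0.37 for BCAT4, 0.22 for MAM1, 0.22 for CYP79F2, 0.08 for UGT74C1, 0.20 for SOT18, 0.42 for FMO GS-OX1 and 0.30 for FMO GS-OX3. Each of these was nearer to 0 than with all libraries. BAT5 kept 0.49 and still passed in that fit (edgeR adjusted p = 0.00452), as did CYP83A1 (edgeR adjusted p = 0.0101). SOT17 was at -0.59, farther from 0, and passed there too (edgeR adjusted p = 0.0150).

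**Figure D3:**
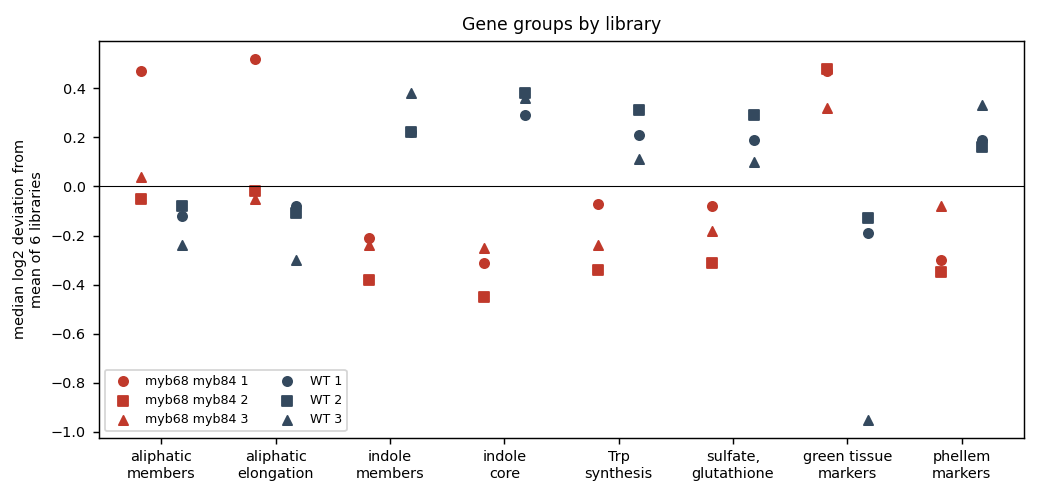
Median log2 deviation of each library from the mean of the 6 libraries, for groups of glucosinolate genes, for supply genes and for green-tissue and phellem markers, with myb68 myb84 libraries before WT libraries. The indole medians are below 0 in all 3 myb68 myb84 libraries and above 0 in all WT libraries, while myb68 myb84 library 1 stands above the other libraries in the aliphatic genes at 0.47.

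The enzymes assigned here to both branches gave 0 calls among 5 in either direction, and their median log2 fold change was -0.17. Whether each of them serves both branches in these roots was not tested, and moving GSTF9 or GSTF10 to a branch would change the branch sums. The glutathione transferase GSTF9 was the member of this group with the largest difference, at 1272, 978 and 1088 CPM in myb68 myb84, against 1287, 1523 and 1206 CPM in WT. Its ranges overlapped and its log2 fold change of -0.27 ± 0.11 (SE) had an edgeR adjusted p of 0.191. Its neighbour GSTF10 had 1006, 738 and 791 CPM in myb68 myb84, against 805, 976 and 719 CPM in WT. GGP1, a γ-glutamyl peptidase that trims the glutathione conjugate, had 254, 207 and 216 CPM in myb68 myb84, against 238, 282 and 229 CPM in WT. The C-S lyase SUR1 had 143, 106 and 124 CPM in myb68 myb84, against 135, 149 and 141 CPM in WT. The glucosyltransferase UGT74B1 had 184, 127 and 150 CPM in myb68 myb84, against 148, 192 and 179 CPM in WT. All of these overlapped between the genotypes, and in each the second mutant library was the lowest of the mutant libraries.

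The 2 transporters did not pass. GTR1, a symporter that loads glucosinolates from the apoplast, had 34.5, 30.5 and 35.5 CPM in myb68 myb84, against 25.4, 27.5 and 29.7 CPM in WT. Its groups did not overlap, at a log2 fold change of 0.29 ± 0.09 (SE, edgeR adjusted p = 0.0676), and 17.0% of its exon bases are overlapped by other genes. GTR2, which acts with GTR1 in long-distance movement, had 127, 114 and 123 CPM in myb68 myb84, against 117, 124 and 125 CPM in WT. Its means were nearly equal, at 121 ± 6.35 CPM in myb68 myb84 and 122 ± 4.26 CPM in WT (SD, n = 3 each).

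Of the breakdown enzymes, PYK10, a β-glucosidase that Arabidopsis roots store in ER bodies, was by far the most abundant of the 42 genes. It had 12912, 11293 and 13558 CPM in myb68 myb84, against 12475, 13934 and 14614 CPM in WT. The ranges overlapped, and the log2 fold change of -0.12 ± 0.11 (SE) had an edgeR adjusted p of 0.602. PEN2, an atypical myrosinase that acts on indole glucosinolates in defence, had 162, 163 and 162 CPM in myb68 myb84, against 194, 193 and 180 CPM in WT. Its groups did not overlap, but the log2 fold change of -0.22 ± 0.07 (SE) did not pass, at an edgeR adjusted p of 0.0649. DESeq2 gave 0.0208 and upper-quartile scaling 0.0436 for the same gene.

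TGG1 and TGG2, the classical myrosinases of shoot myrosin and guard cells, were low and erratic. TGG1 had 4.32, 4.59 and 3.30 CPM in myb68 myb84, against 13.8, 11.6 and 2.13 CPM in WT. TGG2 had 2.65, 3.53 and 2.71 CPM in myb68 myb84, against 11.7, 2.78 and 0.610 CPM in WT. WT 3, which also had the lowest green-tissue sum, was the lowest library for both genes and WT 1 the highest. The log2 fold change of TGG1 was -1.23 ± 0.64 (SE, edgeR adjusted p = 0.359). Without WT 3 its adjusted p was 3.56e-05. For TGG2 the log2 fold change of -0.88 ± 0.94 (SE) was 0.75 without WT 1. FAMA, which marks myrosin and guard cell precursors, had 2, 6 and 0 counts in myb68 myb84, against 12, 10 and 0 counts in WT, with mutant library 3 and WT 3 at 0. These counts were too low to test. Of the markers listed with it, SCRM2 had 1.08, 0.811 and 0.980 CPM in myb68 myb84, against 2.34, 0.913 and 1.12 CPM in WT. ICE1 had 19.0, 22.1 and 21.2 CPM in myb68 myb84, against 23.6, 25.1 and 21.8 CPM in WT. Neither passed, and WT 3 was the lowest library for neither.

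**Figure D4:**
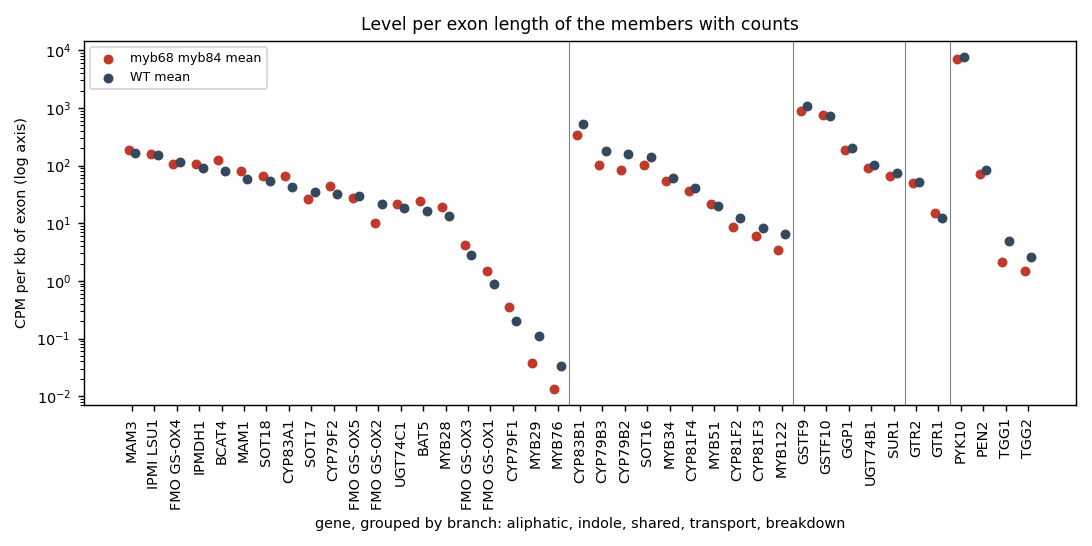
Level of each glucosinolate gene that had counts, as CPM per kb of exon on a log axis, with myb68 myb84 and WT side by side and genes grouped by branch. PYK10 stands highest at 6970 CPM per kb in myb68 myb84 and 7572 in WT, and MYB29, MYB76 and CYP79F1 are the lowest.

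Per kb of exon, levels ranged widely inside each branch. After PYK10 came GSTF9, at 902 CPM per kb in myb68 myb84 and 1086 in WT, and GSTF10, at 747 in myb68 myb84 and 736 in WT. CYP83B1 led the indole branch, at 336 CPM per kb in myb68 myb84 and 534 in WT, and it stood above CYP79B3, at 102 in myb68 myb84 and 182 in WT, and CYP79B2, at 84.2 in myb68 myb84 and 157 in WT. MAM3 led the aliphatic branch, at 189 CPM per kb in myb68 myb84 and 166 in WT, followed by IPMI LSU1, at 157 in myb68 myb84 and 151 in WT. In WT, CYP79B3 and MAM3 were at similar levels, and in myb68 myb84 MAM3 was the higher.

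Several of the 42 genes are neighbours on the chromosome, and neighbouring genes did not always have fold changes of the same sign. SOT18 and SOT16 are adjacent on chromosome 1 with log2 fold changes of 0.32 and -0.45, and MYB122, at -0.91, lies next to this pair with 1 other protein-coding gene between MYB122 and SOT18. FMO GS-OX2 and FMO GS-OX3 are adjacent on chromosome 1 with log2 fold changes of -1.08 and 0.60. By contrast MAM1 and MAM3 are adjacent on chromosome 5 with 0.45 and 0.19, and CYP79F2 and CYP79F1 are adjacent on chromosome 1 with 0.45 and 0.66. MYB51 and SOT17, with 1 gene between them, had log2 fold changes of 0.09 and -0.44.

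Genes that feed or finish the indole branch were then counted from lists that name them by function. Of 6 genes for tryptophan synthesis, which supplies the branch, 5 were lower in myb68 myb84 and 0 higher, with a median log2 fold change of -0.42. Of all tested genes 3.65% were lower and 4.66% higher. TRP1, a phosphoribosyltransferase of the pathway, had 30.5, 23.6 and 26.2 CPM in myb68 myb84, against 48.4, 46.9 and 45.3 CPM in WT, and the groups were clearly apart. Its log2 fold change was -0.81 ± 0.09 (SE, edgeR adjusted p = 0.000183). TSA1, the tryptophan synthase α subunit, had 121, 101 and 109 CPM in myb68 myb84, against 163, 170 and 140 CPM in WT, again without overlap. Its log2 fold change was -0.52 ± 0.09 (SE, edgeR adjusted p = 0.00324). TRP1 and TSA1 passed in all 6 fits without a library. The anthranilate synthase genes ASA1 and ASB1, at -0.37 and -0.47, passed in 2 of the 6, and TSB2, a β subunit at -0.37, in 1. TSB1, the other β subunit listed, did not pass, at -0.01 (edgeR adjusted p = 0.977). Of the ASB1 50-base stretches, 42.1% occur elsewhere in the genome, so its reads may be shared.

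The IGMT methyltransferases, which cap the hydroxyl set by the CYP81F enzymes, gave 3 lower and 0 higher of 5, against 3.65% lower and 4.66% higher of all tested genes. IGMT5, which methylates the position that CYP81F4 hydroxylates, had 214, 171 and 237 CPM in myb68 myb84, against 294, 338 and 359 CPM in WT. It did not overlap between the groups, with a log2 fold change of -0.67 ± 0.12 (SE, edgeR adjusted p = 0.00421) and a call in all 6 fits without a library. IGMT2, at -0.99 (edgeR adjusted p = 0.00784), and IGMT3, at -0.51 (edgeR adjusted p = 0.0173), share 36.7% and 44.7% of their 50-base stretches with other places in the genome, so their counts are uncertain. IGMT2 failed without WT 1, and IGMT3 passed in 3 of 6 such fits. IGMT1, by far the most abundant of the 5, lay on the other side of 0 and did not pass, with 523, 602 and 552 CPM in myb68 myb84, against 533, 490 and 442 CPM in WT. Its groups overlapped, at a log2 fold change of 0.20 ± 0.09 (SE, edgeR adjusted p = 0.227), and IGMT4, at -0.42 (edgeR adjusted p = 0.251), did not pass either. Summed over the 5 genes, the level was 859 ± 36.7 CPM in myb68 myb84 and 950 ± 33.2 CPM in WT (SD, n = 3 each), which is 90.4% of WT.

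**Figure D5:**
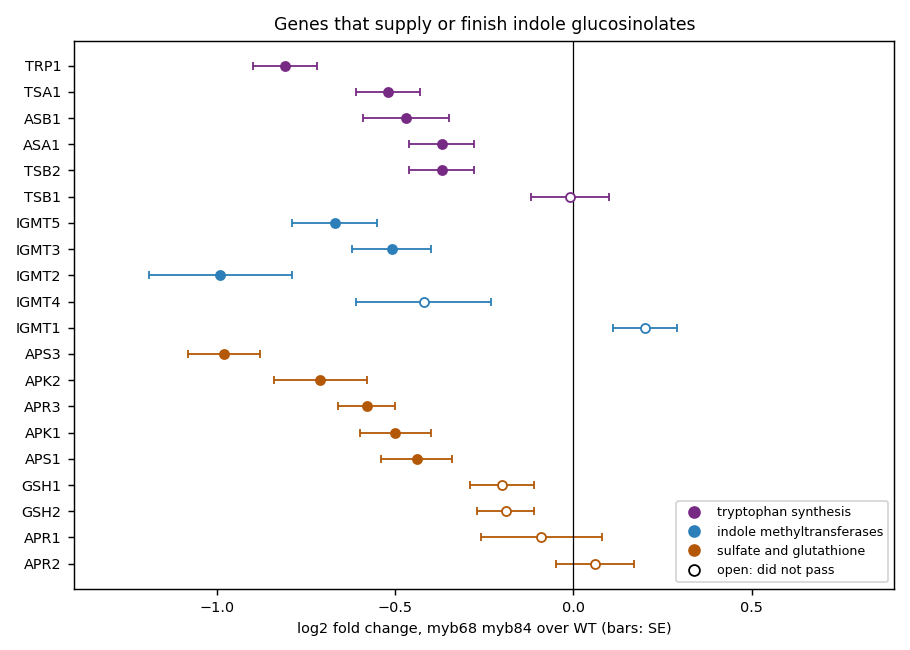
Log2 fold change of myb68 myb84 over WT, with its SE, for genes of tryptophan synthesis, indole glucosinolate methylation, and sulfate activation and glutathione supply, with filled points for genes past the threshold. The 13 filled points all lie left of 0.

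Sulfation needs activated sulfate, and the core takes its thiol from glutathione. Of 9 genes of sulfate activation and glutathione supply, 5 were lower in myb68 myb84 and 0 higher, with a median log2 fold change of -0.44. The shares over all tested genes were 3.65% lower and 4.66% higher. The 5 lower genes were APS1, APS3, APK1, APK2 and APR3. GSH1 and GSH2, the listed genes of glutathione supply, did not pass. Their log2 fold changes were -0.20 (edgeR adjusted p = 0.186) and -0.19 (edgeR adjusted p = 0.188). APR1, at -0.09 (edgeR adjusted p = 0.809), and APR2, at 0.06 (edgeR adjusted p = 0.806), did not pass either. APS3, an ATP sulfurylase, had 10.8, 9.86 and 11.0 CPM in myb68 myb84, against 19.3, 20.6 and 22.7 CPM in WT. Every mutant library was far below every WT library, with a log2 fold change of -0.98 ± 0.10 (SE, edgeR adjusted p = 0.000108). APR3, an adenylylsulfate reductase, had 118, 104 and 124 CPM in myb68 myb84, against 174, 170 and 172 CPM in WT, a log2 fold change of -0.58 ± 0.08 (SE, edgeR adjusted p = 0.000565). The kinases APK1 and APK2, which make the sulfate donor for the SOT enzymes, were lower by log2 fold changes of -0.50 (edgeR adjusted p = 0.00917) and -0.71 (edgeR adjusted p = 0.0114). APS3, APR3 and APK1 passed in all 6 fits without a library, APK2 failed without WT 2, and APS1, at -0.44, passed in 2 of 6.

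Few genes of the remaining lists passed. Of 12 further aliphatic genes 8 were tested and 0 passed in either direction in edgeR, with 3 higher and 0 lower by unadjusted p (threshold 0.05) and a median log2 fold change of 0.25. DESeq2 called 2 of them higher, IPMI SSU2 (adjusted p = 0.0235) and GSL-OH (adjusted p = 0.00669), the first an isomerase subunit of chain elongation and the second a side-chain hydroxylase. Of 7 bHLH and other upstream regulators 6 were tested and 0 passed in edgeR or DESeq2, with 1 lower by unadjusted p and with MYC2 listed at 0 in all libraries but with 98.5% of its exon bases overlapped by another gene. The camalexin branch, which also starts from indole-3-acetaldoxime, had 2 of 3 genes tested and 0 passing in edgeR, DESeq2 or by unadjusted p. Among 3 further transport genes UMAMIT29, an exporter of glucosinolates, was higher, with 11.8, 14.0 and 15.2 CPM in myb68 myb84, against 9.54, 9.36 and 8.99 CPM in WT. Its log2 fold change was 0.56 (edgeR adjusted p = 0.0132), lost without mutant library 2 or 3.

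Among 18 further breakdown genes tested of 20, 3 were higher and 1 lower, where 4.66% of all tested genes were higher and 3.65% lower. By unadjusted p (threshold 0.05) 3 were higher and 4 lower. The root myrosinase TGG5 had 63.2, 59.6 and 60.7 CPM in myb68 myb84, against 48.4, 49.3 and 48.2 CPM in WT, a log2 fold change of 0.33 ± 0.07 (SE, edgeR adjusted p = 0.00792). Its close copy TGG4 stood at 0.28 (edgeR adjusted p = 0.0319) and passed in 1 of 6 fits without a library. They share 23.3% (TGG5) and 25.0% (TGG4) of their 50-base stretches with other places in the genome, so reads may be split between them. NSP1, by far the most abundant nitrile-specifier gene listed, had 2482, 2122 and 2529 CPM in myb68 myb84, against 2720, 2978 and 2828 CPM in WT. Its groups did not overlap, at a log2 fold change of -0.26 (edgeR adjusted p = 0.133, DESeq2 adjusted p = 0.0224). Of its 50-base stretches 27.5% occur elsewhere in the genome. NSP2, a less abundant nitrile-specifier protein, was higher by a log2 fold change of 1.07 (edgeR adjusted p = 0.0330), and ESM1, an epithiospecifier modifier, was lower at -1.76 (edgeR adjusted p = 0.0442). ESM1 was below 2.5 CPM everywhere, and both passed in 2 of the 6 fits.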

How the data were processed

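RNA-seq libraries from 3 myb68 myb84 and 3 WT pools were used. The deposited files hold raw counts per gene, not normalized. Trim Galore, HISAT, featureCounts and DESeq2 are the authors' tools, and TAIR10 their build, per the submitters' processing notes. Not given in the sources used here are tool versions, annotation release, strandedness and how mates were counted. Of counts of 1 to 10, between 77.0% and 81.6% per library were even, against 49.3% to 50.7% of counts above 1000. Low counts thus mostly come in pairs, and a count is not an independent molecule. Libraries held 19446419 to 55907128 counts in all. A floor of 3 counts is 0.0535 to 0.152 CPM and covers counting error only.

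Counts were tested with edgeR 4.0.16 in R 4.3.3 (quasi-likelihood F test, robust, TMM, filterByExpr with a minimum count of 10, genotype as the only term, limma 3.58.1), with Benjamini-Hochberg adjustment over all 20941 tested genes. The SE was taken as the size of the log2 fold change over √F. The test was checked on simulated counts, where it missed part of the changed genes, more of them at the smaller fold change, and where the share of false calls was above that which the threshold sets. Levels per kb divide CPM by the union of exons in the TAIR10.1 annotation, in which 32548 identifiers had an entry. Overlap is the share of exon bases that another annotated gene covers, and shared stretches are 50-base words of a gene's exons found elsewhere in the genome. Library deviations used log2(CPM + 1). Promoter sequences are from the RefSeq TAIR10.1 genome.

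The 42 genes, the other gene lists and the alternatives were chosen with earlier results of these data known. Any of the 42 could be named, and of the other lists those past the threshold, the most abundant and the markers. Alternatives were DESeq2 1.42.0 and its size factors, upper-quartile scaling, limma-voom, no low-count filter, a filter at 1 CPM in 3 libraries, the replicate number as a block, each library left out, and, chosen after seeing the data, halved counts. AOP2 is not analysed here.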

Additional observations from a re-analysis of the deposited data

How the results depend on the processing

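Over 14 alternatives to the test of each of the 39 genes, 501 of 546 values kept their direction and their side of the threshold, 10 no longer passed, 19 passed where they had not, and 16 changed sign. The counts of 5 lower and 0 higher indole genes stayed within 1.5 times in every alternative, although without a low-count filter CYP81F3 passed (edgeR adjusted p = 0.0492) in place of CYP79B2 (adjusted p = 0.0773), and 6 genes in all were lower, with 9 under DESeq2 and 5 to 7 when a library was left out. The aliphatic count of 2 higher genes, which is also that of all 42, was 1 with upper-quartile scaling, 1 without a low-count filter, 4 with DESeq2 and 1 to 4 without a library. The aliphatic count of 1 lower gene was 2 with DESeq2 and 1 to 2 without a library. All genes changed numbered 1739, and 1024 to 1670 without a library. Halved counts gave 1832 over all genes and the same 2 higher and 6 lower counts.

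Same-numbered libraries did not deviate together (correlations of -0.006, 0.024 and 0.084 across genes), and not every library correlated best with its own number. With the replicate number as a block, 5 of the 42 were higher, all 5 aliphatic, with MAM1 (edgeR adjusted p = 0.00922), BCAT4 (adjusted p = 0.0300) and MYB28 (adjusted p = 0.00670) added, and 7 were lower with CYP81F3 (adjusted p = 0.0384) added, and of all genes 5.51% were higher and 4.37% lower, 2069 in all.

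Values that changed sign were small or rested on a library, and the cause was not tested. Over the fits without a library, the log2 fold change ran between -0.30 and 0.01 for MYB34, -0.24 and 0.01 for FMO GS-OX4, and -0.28 and 0.07 for CYP81F4 (the highest without WT 3), between -0.83 and 0.15 for CYP81F2 and -1.35 and 0.75 for TGG2 (the highest without WT 1), and between -0.03 and 0.29 for MAM3, -0.08 and 0.15 for IPMI LSU1, and -0.06 and 0.35 for IPMDH1 (the lowest without myb68 myb84 1). It ran between -0.12 and 0.15 for GSTF10, with -0.00 under upper-quartile scaling, and between -0.03 and 0.04 for GTR2, with 0.00 without a filter. MYB29 and MYB76 had too few counts to test.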
